A study of Mus musculus with 18 samples.

Results

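The 10 genes described here encode transcription factors of fat cell formation: Pparg, Rxra, Cebpa, Cebpb, Cebpd, Klf4, Klf15, Ebf1, Zfp423 and Nr1h3. They were chosen by name, by matching the Ensembl identifiers of the deposited gene tables to mouse symbols of GENCODE M21. All 10 were found among 22298 genes. RNA was profiled by sequencing in liver, inguinal white fat (iWAT, under the skin) and epididymal white fat (eWAT, in the abdomen beside the epididymis). In each tissue 3 libraries were labelled KO, from C57BL/6 mice of 12 weeks whose Bckdha gene is floxed and which carry RIP-Cre. A further 3 libraries per tissue were labelled WT, from mice of the same strain and age with floxed Bckdha and no RIP-Cre. Both groups therefore carry the floxed allele, and no group carries RIP-Cre alone. RIP-Cre commonly names Cre driven by the rat insulin promoter, which acts in pancreatic beta cells and some neurons, so liver and fat are not the tissues where deletion of Bckdha is expected. Bckdha (a subunit of the enzyme that breaks down branched-chain ketoacids) did not pass the test in any of the 3 tissues, with KO minus WT log2 differences of -0.08 ± 0.18 in liver, -0.04 ± 0.38 in iWAT and -0.59 ± 0.66 in eWAT (SE), which is no check of the labels. The sources used here give neither the sex of the mice nor whether replicates are separate animals. The p-values therefore reflect the spread between libraries alone, which may be technical.

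Fat cells form from fibroblast-like precursors through a cascade of DNA-binding proteins. Cebpb and Cebpd act early after a hormonal stimulus and, in cultured mouse preadipocytes, help to switch on Pparg and Cebpa, which then maintain each other and drive the genes of lipid storage. Ebf1 and Zfp423 mark precursors committed to the fat lineage, Klf4 and Klf15 are Kruppel-like zinc finger factors that act at an early and a late step, and the nuclear receptors PPARG and LXR alpha (encoded by Nr1h3) bind DNA together with a retinoid X receptor such as that encoded by Rxra. Several of these factors also work in hepatocytes, where C/EBP proteins, LXR alpha and KLF15 control metabolism of glucose, amino acids and sterols.

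Because C/EBP proteins are known to activate Pparg and to bind its fat-selective downstream promoter, the start regions of the members were searched for a C/EBP motif, spelled TTNNGCAA and read on both strands. RefSeq (GRCm38.p6) gave 15 start sites for 9 of the 10 members, each taken with the 250 bases before it. The motif occurred before 2 of these 15 start sites, one of Pparg and one of Zfp423, and in 9.56% of all 32851 promoters of the same length. Shown here are those 2 windows and that of Cebpa, whose single start site holds no match. Each is written 5′ to 3′ on the gene's strand with C/EBP matches in capitals. The Pparg window lies at chr6:115421816-115422065 (plus strand) inside the gene and away from its annotated exons, the Zfp423 window at chr8:87959596-87959845 (minus strand), and the Cebpa window at chr7:35119043-35119292 (plus strand).
Pparg, downstream start: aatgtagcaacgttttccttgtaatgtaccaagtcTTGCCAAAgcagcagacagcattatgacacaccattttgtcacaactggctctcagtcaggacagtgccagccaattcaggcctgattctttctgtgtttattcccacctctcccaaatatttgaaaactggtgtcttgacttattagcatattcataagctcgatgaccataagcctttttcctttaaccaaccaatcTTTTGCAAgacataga
Zfp423, upstream start: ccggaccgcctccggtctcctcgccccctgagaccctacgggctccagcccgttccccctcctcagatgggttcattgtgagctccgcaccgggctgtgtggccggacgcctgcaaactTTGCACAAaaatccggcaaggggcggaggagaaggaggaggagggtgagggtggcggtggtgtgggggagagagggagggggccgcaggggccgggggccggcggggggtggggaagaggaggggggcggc
Cebpa: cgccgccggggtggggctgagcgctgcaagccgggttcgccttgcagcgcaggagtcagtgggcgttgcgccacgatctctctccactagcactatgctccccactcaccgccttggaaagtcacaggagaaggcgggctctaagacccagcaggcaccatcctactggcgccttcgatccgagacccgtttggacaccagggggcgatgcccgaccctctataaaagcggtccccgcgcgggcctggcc

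The Pparg window holds 2 matches, beginning 215 and 16 bases before the start site, and 2 CCAAT boxes, a motif found in 33.8% of all promoters. The Zfp423 window holds 1 match, which begins 131 bases before the start site. The Cebpa window holds a TATA box (TATAAA, in 12.4% of all promoters) that begins 30 bases before the start site. A match describes letters only, and the deposited values are per gene, so use of the separate Pparg start sites was not measured.

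The libraries held 18629302 to 25969223 counts in liver, 17959394 to 28039742 in iWAT and 16796147 to 24357859 in eWAT. All 8 hepatocyte markers were present in the liver libraries, with a summed level of 98210 to 107730 counts scaled to a common library size (CPM) in KO and 99312 to 132559 CPM in WT. All 8 adipocyte markers had reads in every library. Their summed level was 11940 to 30043 CPM in iWAT KO, 9021 to 29124 CPM in iWAT WT, 11848 to 23650 CPM in eWAT KO and 278 to 49565 CPM in eWAT WT. The low value belongs to eWAT WT replicate 2, which held 65471 CPM of 8 epididymis markers, whereas the other eWAT libraries held 1418, 23.0 and 1783 CPM in KO and 48.8 and 1.71 CPM in WT. Crisp1 alone made 1397 and 1749 CPM of the sums in KO replicates 1 and 3. The KO minus WT differences of the members in eWAT are therefore given with and without WT replicate 2. Comparisons of eWAT with other tissues include that library unless stated, and results of the other gene lists include it throughout. In bulk tissue, fewer cells of a type and less RNA per cell cannot be told apart.

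Pparg, the master nuclear receptor of fat cells, separated the tissues by its level per gene length (the authors' FPKM, fragments per gene length and library size). It reached 3.34, 4.42 and 5.11 FPKM in liver (lowest, median and highest of 6 libraries), 52.6, 97.7 and 201 FPKM in iWAT, and 1.67, 142 and 201 FPKM in eWAT. Its liver values lay below all 11 fat libraries other than eWAT WT replicate 2, which had 1.67 FPKM. On counts scaled with TMM factors, liver minus iWAT was -3.32 ± 0.35 on the log2 scale (SE, edgeR quasi-likelihood test) and liver minus eWAT was -3.36 ± 0.77, with adjusted p = 0.00292 for the second. Without eWAT WT replicate 2, liver minus eWAT was -3.65 ± 0.21.

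Rxra, the retinoid X receptor that pairs with PPARG and LXR, had the opposite order. It stood at 40.9, 88.6 and 106 FPKM in liver, 39.2, 47.1 and 52.0 FPKM in iWAT, and 17.8, 46.2 and 59.1 FPKM in eWAT. The liver and fat ranges overlap because liver WT replicate 2 had 40.9 FPKM and the other 5 liver libraries 78.4 FPKM or more. It was higher in liver, by 2.09 ± 0.20 on the log2 scale against iWAT and by 2.26 ± 0.30 against eWAT. With library totals not scaled by TMM factors these differences were smaller, 0.73 ± 0.19 and 0.86 ± 0.28.

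**Figure D1:**
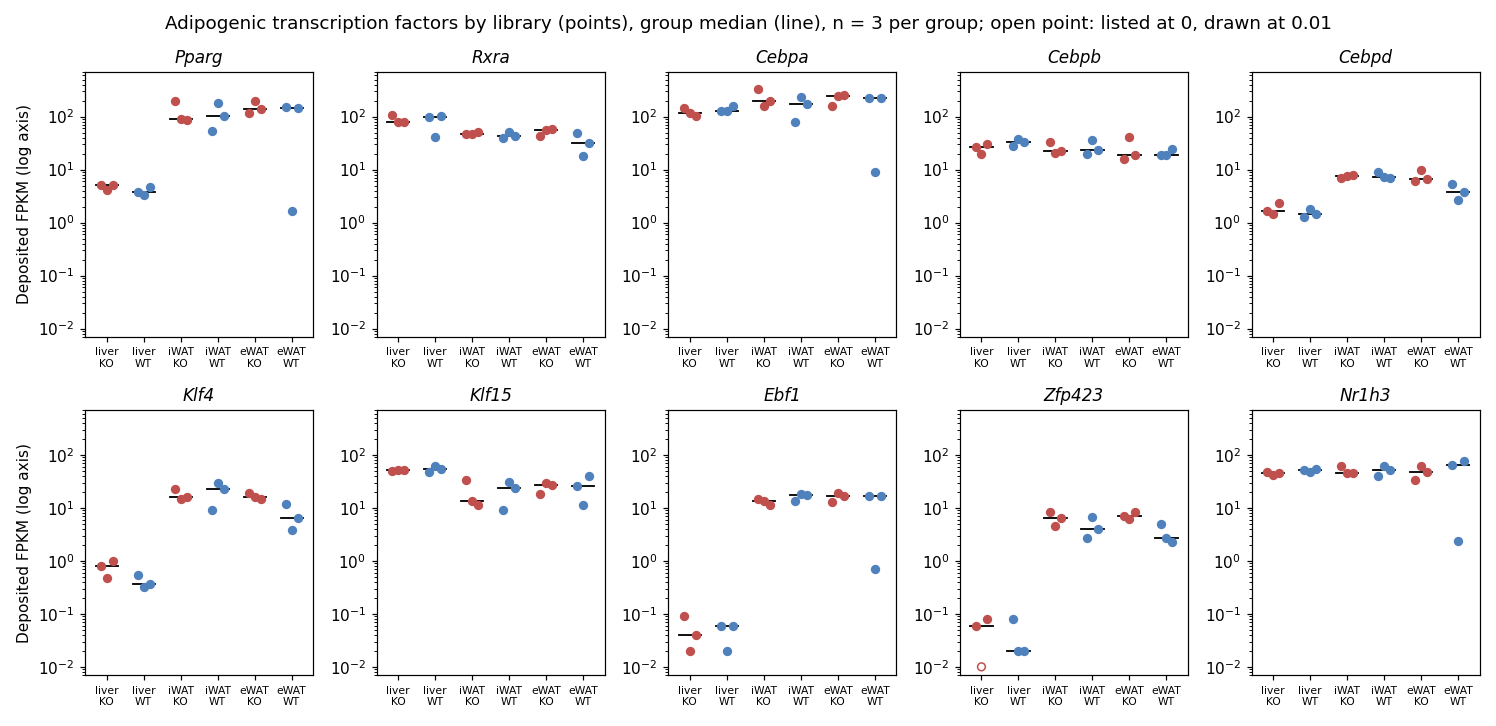
Deposited FPKM of the 10 members (log axis) in each of 18 libraries, 3 per group, with KO in red left of WT in blue and a line at the group median. Pparg, Klf4, Ebf1 and Zfp423 sit lower in liver than in the fat libraries other than eWAT WT replicate 2, which drops to 1.67 FPKM for Pparg, and Zfp423 is listed at 0 in liver KO replicate 2.

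Among the 10 genes, 5 were higher and 5 lower in liver than in iWAT, beside 77.5% of 14673 genes called at an adjusted p under 0.05, 31.7% higher and 45.8% lower. Against eWAT 3 were higher, 4 lower and 3 not called, beside 70.2% of 14984 genes, 29.7% higher and 40.6% lower. In CPM scaled over both tissues of a comparison, values of 9 members did not overlap between liver and iWAT (56.7% of all genes) and of 7 between liver and eWAT (43.4%). The CPM values printed elsewhere are scaled within a tissue, and these counts do not apply to them. On the FPKM scale, whose values are printed here, 6 members did not overlap between liver and iWAT (74.6% of all genes) and 5 between liver and eWAT (59.9%). The scaling decides the direction for Cebpa and Nr1h3, the call for Cebpb, and the call for Cebpd against eWAT. A few transcripts take a larger share of liver RNA (20.7% to 24.1% of counts in the 10 most abundant genes, against 6.75% to 14.9% in iWAT and 6.43% to 19.0% in eWAT), and with unscaled library totals the median of all genes moved by -1.37 (liver minus iWAT) and -1.43 (liver minus eWAT) on the log2 scale. With those totals 2 members were called higher and 5 lower in liver, in both comparisons, beside 1623 genes higher and 11512 lower against iWAT and 1272 higher and 11536 lower against eWAT. Rxra and Klf15 were called higher in liver, and Pparg, Klf4, Ebf1 and Zfp423 lower, under both scalings and against both depots.

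**Figure D2:**
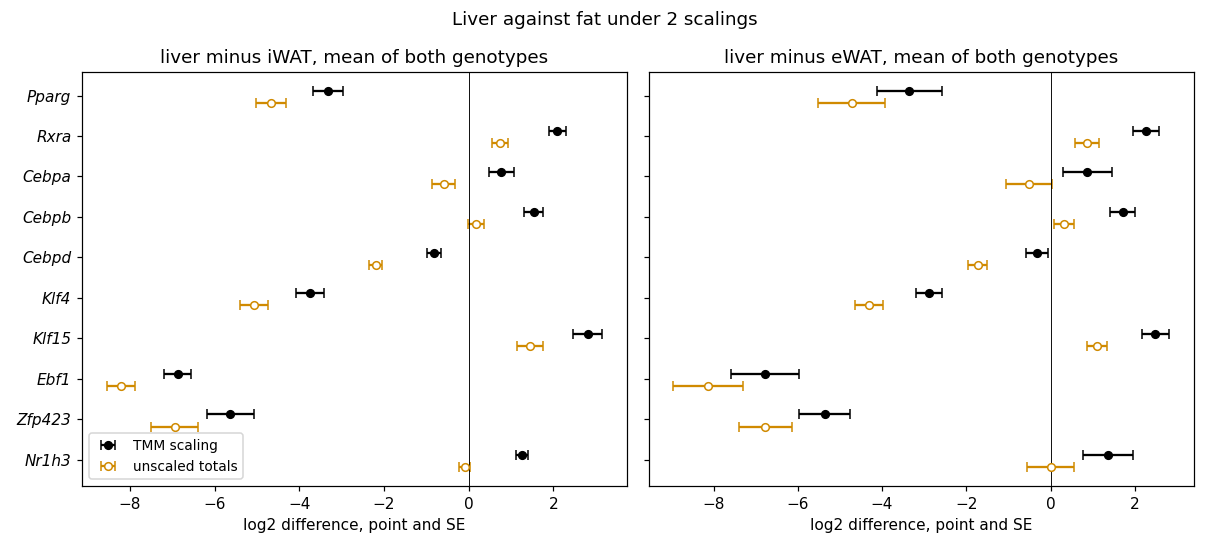
Log2 differences of the 10 members, liver minus iWAT (left) and liver minus eWAT (right), as points with SE, under TMM scaling (black) and unscaled library totals (open orange). Cebpa passes from 0.77 with TMM factors to -0.59 with unscaled totals against iWAT, while Ebf1 stays at -6.87 and -8.22.

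Cebpa, the C/EBP factor that sustains the mature fat cell and is also abundant in hepatocytes, had the highest median FPKM of the 10 genes in each tissue and was above the next gene in all 6 libraries of each. It reached 105, 127 and 161 FPKM in liver, 79.8, 186 and 328 FPKM in iWAT, and 9.17, 228 and 256 FPKM in eWAT. In eWAT WT replicate 2, Cebpa (9.17 FPKM) lay below Cebpb (18.9 FPKM), Rxra (17.8 FPKM) and Klf15 (11.1 FPKM). The ranges of the tissues overlap. With TMM factors Cebpa was higher in liver than in iWAT by 0.77 ± 0.29 (adjusted p = 0.0288), a call that was lost when any of 5 single libraries was left out (iWAT WT replicate 3, KO replicates 2 and 3, liver WT replicate 3 or KO replicate 1; adjusted p = 0.0524 to 0.0681) and whose sign turned with unscaled totals (-0.59, adjusted p = 0.0540). Against eWAT it did not pass (0.87 ± 0.58, adjusted p = 0.200), but passed without eWAT WT replicate 2 (0.59, adjusted p = 0.0230), and unscaled totals gave -0.51.

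Cebpb, an early C/EBP factor that also responds to acute signals in liver, stood at 19.5, 29.1 and 38.0 FPKM in liver, 19.6, 22.8 and 35.9 FPKM in iWAT, and 15.8, 19.1 and 41.7 FPKM in eWAT, so the 3 tissues overlap widely. TMM factors gave 1.53 ± 0.22 for liver minus iWAT and 1.71 ± 0.30 for liver minus eWAT, both called, and unscaled totals gave 0.17 (adjusted p = 0.415) and 0.32 (adjusted p = 0.228), neither called. Cebpd, its partner in the early step, was lower in liver: 1.25, 1.54 and 2.32 FPKM in liver, 6.92, 7.40 and 9.0 FPKM in iWAT, and 2.72, 5.74 and 10 FPKM in eWAT. No liver library reached a fat library on this scale. The difference was -0.82 ± 0.16 against iWAT, called, and -0.32 ± 0.26 against eWAT (adjusted p = 0.282), which unscaled totals put at -1.73 (adjusted p = 4.25e-05). Exons of Cebpb overlap Tmem189 and exons of Cebpd overlap Spidr, each on the opposite strand. The sources used here do not say if the library kit kept the strand, and reads in the shared stretches then cannot be told apart. Tmem189 lay at 21.4 to 38.0 CPM in liver, 64.6 to 81.8 CPM in iWAT and 53.0 to 109 CPM in eWAT. Spidr lay at 1.16 to 2.91 CPM in liver, 11.8 to 14.2 CPM in iWAT and 6.89 to 15.2 CPM in eWAT.

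Klf4, which in cultured preadipocytes acts upstream of Cebpb, was at 0.320, 0.510 and 1.01 FPKM in liver, 9.31, 19.2 and 28.9 FPKM in iWAT, and 3.77, 13.3 and 19.0 FPKM in eWAT. Every liver library was below every fat library, and the differences were -3.74 ± 0.33 against iWAT and -2.89 ± 0.30 against eWAT. Klf15, a late factor of fat cell formation and a regulator of amino acid use in liver, was the reverse: 47.8, 51.4 and 62.3 FPKM in liver, 9.29, 18.5 and 33.5 FPKM in iWAT, and 11.1, 26.6 and 40.1 FPKM in eWAT. Every liver library was above every fat library (2.81 ± 0.34 against iWAT and 2.48 ± 0.32 against eWAT). Both Kruppel-like genes thus separated liver from fat without overlap, in opposite directions.

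The lineage factors Ebf1 and Zfp423 were near the lower limit of counting in liver. Ebf1 had 2 to 10 reads per liver library and 0.0200 to 0.0900 FPKM, against 11.4, 14.0 and 18.4 FPKM in iWAT and 0.690, 16.7 and 18.9 FPKM in eWAT. Zfp423 had 0 to 8 reads per liver library and 0 to 0.0800 FPKM, against 2.72, 5.49 and 8.49 FPKM in iWAT and 2.25, 5.50 and 8.34 FPKM in eWAT. The count of 0, in liver KO replicate 2, allows up to 0.116 CPM (3 counts of that library's total, counting error only). Fat and liver did not overlap for either gene, and the log2 differences were -6.87 ± 0.32 (Ebf1) and -5.63 ± 0.56 (Zfp423) against iWAT and -6.78 ± 0.81 and -5.36 ± 0.60 against eWAT. The liver libraries also held small amounts of Adipoq, the fat cell hormone adiponectin: 4.39, 0.539 and 3.62 CPM in KO and 2.84, 3.48 and 2.63 CPM in WT. The part that fat transcripts in the liver libraries have in the few Ebf1 and Zfp423 reads was not tested.

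Nr1h3, the oxysterol receptor LXR alpha, had similar medians per length in the tissues: 41.6, 47.2 and 53.8 FPKM in liver, 39.9, 48.4 and 63.0 FPKM in iWAT, and 2.37, 54.8 and 76.6 FPKM in eWAT. The tissues overlap, and eWAT WT replicate 2 is the lowest library. With TMM factors it was higher in liver than in iWAT by 1.26 ± 0.15, and against eWAT it was 1.36 ± 0.60 (adjusted p = 0.0641). The second comparison passed without eWAT WT replicate 2 (1.08, adjusted p = 8.98e-04) and without eWAT WT replicate 3 (1.66, adjusted p = 0.0411). With unscaled totals the differences were -0.10 and -0.00, and neither passed.

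Ordered by median FPKM, the liver ran Cebpa, Rxra, Klf15, Nr1h3, Cebpb, Pparg, Cebpd, Klf4, Ebf1 and Zfp423. From Nr1h3 to Klf4, each of these liver genes lay wholly above the next, while the ranges of the first 4 overlapped from one to the next, as did those of Ebf1 and Zfp423. In iWAT the order was Cebpa, Pparg, Nr1h3, Rxra, Cebpb, Klf4, Klf15, Ebf1, Cebpd and Zfp423. Pparg was below Cebpa and above Nr1h3 in all 6 iWAT libraries, whereas Klf4 and Klf15 exchanged places, with Klf4 above in 3 of 6. In eWAT the order began the same way and ended Klf15, Cebpb, Ebf1, Klf4, Cebpd and Zfp423, and without WT replicate 2 Pparg lay wholly above Nr1h3 while every other pair of neighbours overlapped.

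Between the depots no member passed the test, 0 of 10 against 17.4% of 15455 genes (35.8% at an unadjusted p under 0.05, with no member among them), and no member's values separated (4.29% of all genes). The lowest p was that of Klf4 (unadjusted p = 0.0559, adjusted p = 0.150), at 0.76 ± 0.35 for iWAT minus eWAT. Cebpd followed with 0.40 ± 0.21 and Klf15 with -0.40 ± 0.45. Pparg was at -0.12 ± 0.78 and Cebpa at 0.02 ± 0.64, intervals wide enough to hold differences of over 1 on the log2 scale. The background itself rests on single libraries: 16 genes passed without eWAT KO replicate 3, and 471 to 735 passed without eWAT KO replicate 1 or iWAT WT replicates 1 and 3 or KO replicates 2 and 3, against 2692 with all 12 libraries. DESeq2 called 4454 genes and none of the 10.

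Within iWAT, Pparg differed between libraries of 1 group by more than between the groups. It was 377, 147 and 143 CPM in KO and 92.1, 362 and 192 CPM in WT. The highest library was KO replicate 1, closely followed by WT replicate 2, and the lowest was WT replicate 1. The summed adipocyte markers were 30043, 11940 and 13232 CPM in KO and 9021, 29124 and 22958 CPM in WT. KO replicate 1, WT replicate 2 and WT replicate 3 were the 3 highest libraries for these markers and also for Pparg, Cebpb, Klf4, Klf15, Ebf1 and Nr1h3. For Cebpa, Rxra and Zfp423 the 3 highest libraries held KO replicate 3 in place of WT replicate 3 (493 CPM against 454 CPM for Cebpa). Cebpd did not follow them: it was 27.6, 25.8 and 28.0 CPM in KO and 32.5, 30.0 and 26.8 CPM in WT, a 1.26-fold span against 4.10-fold for Pparg and 4.40-fold for Cebpa. The summed B cell markers of the same libraries were 474, 1514 and 1410 CPM in KO and 1643, 7.39 and 698 CPM in WT, lowest in the same 3 libraries. The part of cell makeup in these spreads was not tested.

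In eWAT, WT replicate 2 was the lowest library in CPM for 9 of the 10 members, and Cebpb was the exception. The drop was unequal. Pparg was 2.83 CPM there, against 165 CPM or more in the other 5 libraries. Ebf1 was 4.06 CPM against 54.2 CPM or more, and Nr1h3 was 4.24 CPM against 45.7 CPM or more. These 3 genes and Cebpa (23.4 CPM, against 324 CPM or more) stood far below every other library. Cebpb, at 28.1 CPM, lay inside the range of the other libraries, which ran from 18.4 to 61.8 CPM. Tmem189, whose exons overlap Cebpb, was highest in the same library, at 109 CPM, and its part in the Cebpb value was not tested. Zfp423 was 9.78 CPM there, against 13.7 CPM in the next lowest library, WT replicate 3, which had the lower value on the FPKM scale (2.25 FPKM, against 2.71 FPKM in WT replicate 2).

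**Figure D3:**
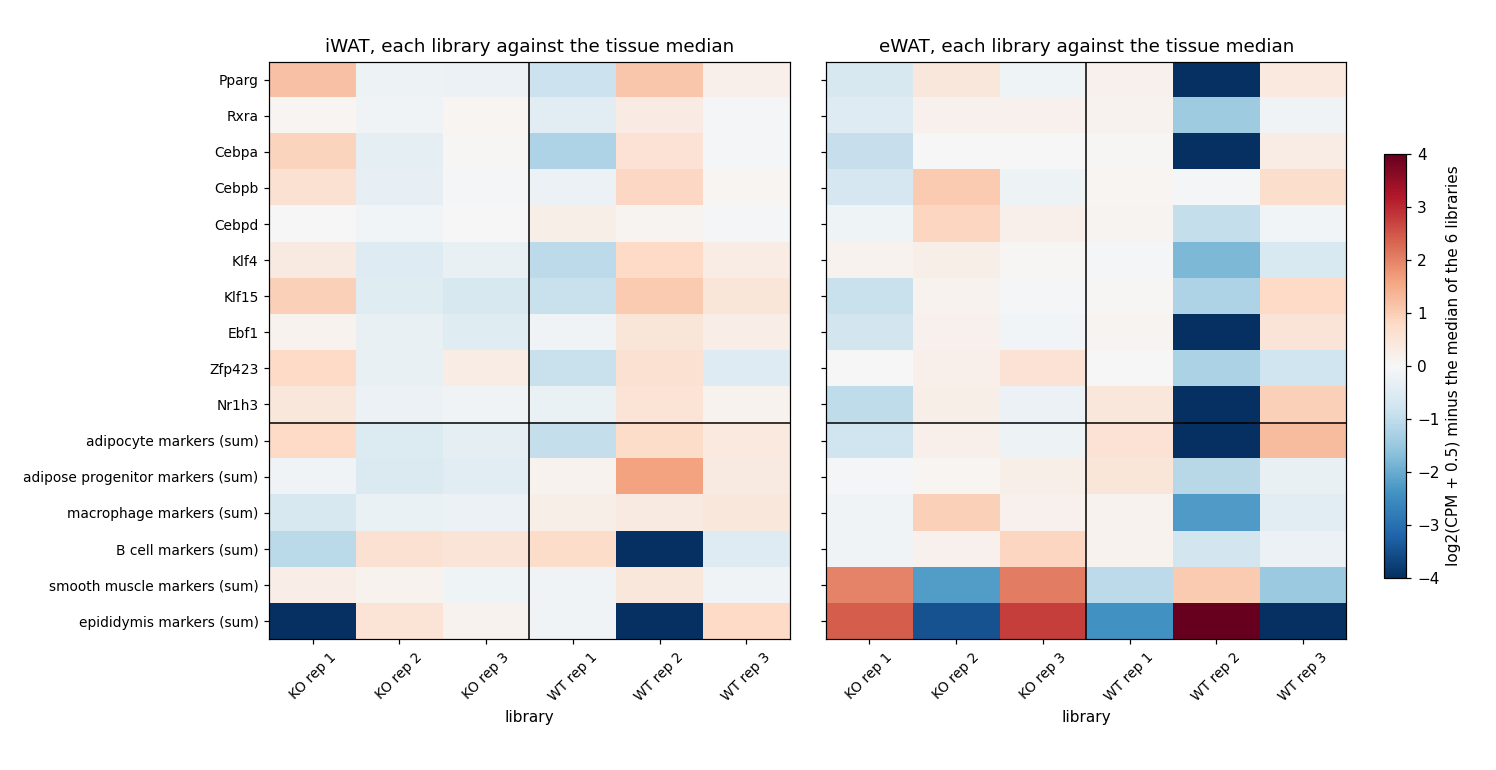
Colour shows log2(CPM + 0.5) of each member (above the line) and of the summed markers of 6 cell types (below it) in each fat library, minus the median of the 6 libraries of the tissue, with KO libraries left of WT libraries. The colour scale stops at -4 and 4. In iWAT, KO replicate 1 and WT replicate 2 are high for Pparg (377 and 362 CPM) and for adipocyte markers, and in eWAT, WT replicate 2 is low for 9 members and high for epididymis markers (65471 CPM).

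For KO against WT in eWAT, 0 of 10 members passed, beside 0% of 14657 genes. At an unadjusted p under 0.05 there were no members and 843 genes (5.75%), and DESeq2 called 123 genes and none of the 10. In CPM, values of 2 members, Zfp423 and Klf4, did not overlap between the groups, beside 15.0% of all genes, and on the FPKM scale those of Cebpd did not either (22.4% of all genes). Zfp423 was 24.5, 28.2 and 36.0 CPM in KO and 23.9, 9.78 and 13.7 CPM in WT. Klf4 was 44.5, 46.9 and 41.7 CPM in KO and 38.5, 11.2 and 26.3 CPM in WT. In both genes every KO library was above every WT library, by a narrow margin over WT replicate 1, and the log2 differences were 0.90 ± 0.38 for Zfp423 (unadjusted p = 0.0555) and 0.81 ± 0.44 for Klf4 (unadjusted p = 0.118), both with adjusted p = 0.706. Without WT replicate 2 these were 0.69 ± 0.29 and 0.50 ± 0.21.

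For the mature fat cell factors the eWAT contrast turned on WT replicate 2. Pparg was 165, 356 and 230 CPM in KO and 293, 2.83 and 343 CPM in WT, and the difference was 0.24 ± 1.33 with that library and -0.33 ± 0.33 without it. Nr1h3 was 45.7, 108 and 79.0 CPM in KO and 126, 4.24 and 181 CPM in WT. All 3 KO values of Nr1h3 lay below the 2 higher WT values and above the low one, and the difference was -0.42 ± 1.12 with that library and -0.97 ± 0.37 without it (adjusted p = 0.281). Cebpa gave 0.14 ± 1.08 and -0.40 ± 0.31, Ebf1 0.06 ± 1.04 and -0.49 ± 0.28, and Rxra 0.31 ± 0.46 and -0.01 ± 0.24, in the same order, so these signs turned too. The remaining differences with all libraries were 0.63 ± 0.41 for Cebpd, -0.04 ± 0.51 for Cebpb and -0.29 ± 0.55 for Klf15. Without WT replicate 2 they were 0.40 ± 0.32, -0.18 ± 0.55 and -0.66 ± 0.36, and none passed in either fit. KO replicates 1 and 3 held higher sums of smooth muscle markers than KO replicate 2 (3387, 179 and 3554 CPM in KO, against 408, 1777 and 304 CPM in WT). Their sums of epididymis markers were higher too, through Crisp1 (1397 and 1749 CPM, against 1.08 CPM in KO replicate 2). Gpx5, another epididymis marker, was 11.8, 14.1 and 19.9 CPM in KO. The part of these transcripts in the eWAT values was not tested.

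**Figure D4:**
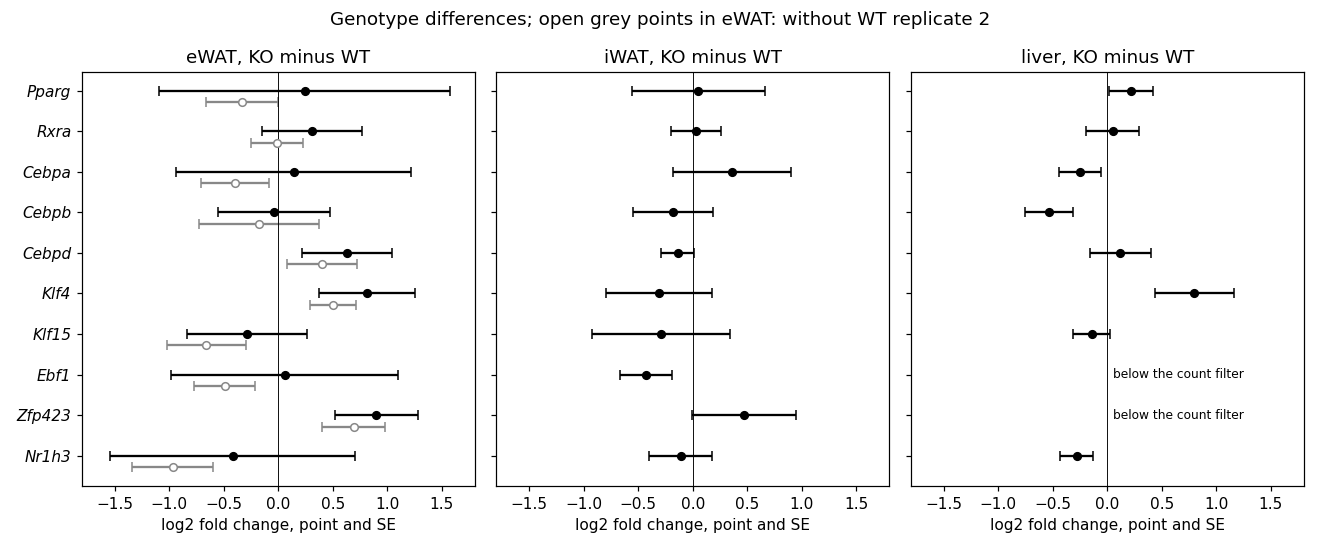
Log2 difference KO minus WT with SE for each member in eWAT, iWAT and liver, each from 3 against 3 libraries. Open grey points in eWAT leave out WT replicate 2, which moves Pparg from 0.24 to -0.33 and narrows its SE from 1.33 to 0.33, and no point passed the adjusted threshold of 0.05.

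In iWAT none of the 10 members passed and none had groups that did not overlap, beside 0% of 14226 genes called and 9.38% with groups that did not overlap. At an unadjusted p under 0.05 there were no members and 593 genes (4.17%), while DESeq2 called 66 genes and none of the 10. Ebf1 came nearest: it was 86.0, 64.6 and 55.8 CPM in KO and 72.0, 111 and 94.8 CPM in WT, a difference of -0.43 ± 0.24 (unadjusted p = 0.126, adjusted p = 1.0). The groups overlap through WT replicate 1. Zfp423 was 40.8, 18.9 and 28.2 CPM in KO and 12.1, 35.7 and 15.9 CPM in WT (0.47 ± 0.48), and this difference was 1.06 ± 0.36 without WT replicate 2 and 0.18 without WT replicate 1 or KO replicate 1. The smallest errors belonged to Cebpd (-0.14 ± 0.15) and Rxra (0.03 ± 0.23), and those of Klf15 (-0.29 ± 0.63) and Pparg (0.05 ± 0.61) were the widest. Markers of other cells separated the same libraries: the summed level of 8 macrophage markers was 1761, 2268 and 2361 CPM in KO and 3214, 3527 and 3770 CPM in WT, and that of 8 adipose progenitor markers was 2394, 1767 and 1961 CPM in KO and 2967, 8160 and 3385 CPM in WT. Both sums were lower in every KO library than in every WT library, and no marker of either list was at 0. Singly, the progenitor markers Pdgfra, Col1a1 and Col3a1 separated the groups, whereas Dcn, Cd34, Dpp4, Pi16 and Ly6a overlapped. Ly6a was 308, 298 and 310 CPM in KO and 196, 416 and 273 CPM in WT. The part of these cells in the iWAT genotype differences was not tested.

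In liver 8 members were tested and none passed, beside 0.0504% of 11915 genes (6 genes, against 0 without KO replicate 1, 2 without WT replicate 1 or KO replicate 2, 11 without WT replicate 3 and 25 without WT replicate 2). Ebf1 and Zfp423 did not pass the filter on low counts. At an unadjusted p under 0.05 there was 1 member, Cebpb, and 720 genes (6.04%), while DESeq2 called 65 genes and none of the 8. Cebpb was 37.6, 29.3 and 42.2 CPM in KO and 41.6, 67.3 and 48.5 CPM in WT, a difference of -0.53 ± 0.22 (unadjusted p = 0.0406, adjusted p = 0.800). Only KO replicate 3, at 42.2 CPM, overlapped the WT range, and without WT replicate 2 the difference was -0.31 ± 0.17. Nr1h3 was the one member whose groups did not overlap (13.0% of all genes), at 80.1, 74.4 and 77.1 CPM in KO and 89.7, 98.9 and 93.1 CPM in WT. Every KO library was below every WT library, with a log2 difference of -0.28 ± 0.15 (unadjusted p = 0.0890, adjusted p = 0.836).

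Klf4 was low in liver, at 2.32, 1.46 and 2.87 CPM in KO and 1.59, 1.10 and 1.08 CPM in WT, or 38 to 57 reads against 19 to 37 reads per library. WT replicate 1 overlaps KO, and the difference was 0.80 ± 0.36 (unadjusted p = 0.0502, adjusted p = 0.816). The other members lay closer to zero: 0.22 ± 0.20 for Pparg, 0.05 ± 0.24 for Rxra, -0.25 ± 0.19 for Cebpa, 0.12 ± 0.28 for Cebpd and -0.14 ± 0.17 for Klf15. Hepatic Pparg in KO was 9.95, 8.01 and 8.95 CPM, against 7.05, 7.08 and 8.97 CPM in WT.

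No member passed a test of whether its KO minus WT difference differed between tissues. For iWAT minus eWAT, liver minus eWAT and liver minus iWAT, 0 of 10 members passed, beside 0% of 15455, 14984 and 14673 genes (4.78%, 5.30% and 4.80% at an unadjusted p under 0.05, with no member among them). In the tests with liver, Ebf1 and Zfp423 passed the filter on low counts only through the fat libraries. With 10 reads or fewer per liver library (SE 1.52 and 1.11 against eWAT), those tests can say little about either gene. DESeq2 called 31, 40 and 36 genes in these tests and no member. The members nearest the threshold were Cebpd, whose effect was -0.81 ± 0.42 in iWAT minus eWAT (unadjusted p = 0.0846), and Klf4, whose effect was 1.11 ± 0.61 in liver minus iWAT (unadjusted p = 0.0941). Those comparisons share libraries with one another.

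Other genes of the pathway followed from lists drawn up by their known roles. Of 20 PPARG target genes of fat cells, such as Fabp4 (fatty acid binding), Cidec (lipid droplet growth) and Cfd (adipsin), 17 were lower and 1 higher in liver than in iWAT (45.8% and 31.7% of all genes), with a median log2 difference of -4.25 beside -0.34 over all genes tested. Against eWAT 14 were lower and 1 higher (median -4.45, beside -0.29). Aqp7 (a glycerol channel) was at -7.64 ± 0.99 for liver minus eWAT, and Plin1 (a lipid droplet coat protein) at -7.83 ± 1.06. Of 19 further regulators of fat cell formation, 13 were lower and none higher in liver than in iWAT, among them Ebf2 (-7.63 ± 0.48) and Ebf3 (-7.95 ± 0.51), relatives of Ebf1. Of 16 inhibitors of fat cell formation 9 were lower and 1 higher, and Zfp521, an antagonist of Zfp423, was at -4.78 ± 0.23. Of 12 LXR targets 5 were higher and 5 lower, led by the liver genes Cyp7a1 (bile acid synthesis), Abcg8 and Abcg5 (sterol export). Of 10 glucocorticoid-induced genes 6 were higher and 3 lower, and of 12 early response genes 3 were higher and 4 lower. For the further regulators (13 of 19 called), the inhibitors (10 of 16) and the early response genes (7 of 12) these shares lie below the 77.5% of all genes called, and for the LXR targets (10 of 12) and glucocorticoid-induced genes (9 of 10) they lie not far above it.

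Between KO and WT no gene of these 6 lists passed in any tissue. In iWAT all 9 LXR targets tested had negative differences (median -0.50, beside 0.01 over all genes). The same KO libraries held the lower macrophage and progenitor marker sums. LXR targets split into 4 positive and 5 negative differences in eWAT (median -0.10, beside -0.02) and 6 and 6 in liver (median 0.02, beside -0.00). Srebf1, the lipogenic factor induced by LXR, was at 881, 452 and 663 CPM in iWAT KO and 565, 2034 and 1089 CPM in iWAT WT (-0.89 ± 0.51, adjusted p = 1.0). In eWAT Srebf1 was 292, 316 and 480 CPM in KO and 1179, 266 and 1707 CPM in WT (-1.53 ± 0.71, adjusted p = 0.706), and the 20 PPARG targets split into 8 positive and 12 negative differences (median -0.36, beside -0.02). These eWAT values include WT replicate 2, and the splits without it were not computed. Adipoq, a target on the list, was 953, 2321 and 1439 CPM in eWAT KO and 2968, 16.9 and 3882 CPM in eWAT WT. In liver the 19 PPARG targets tested split into 8 positive and 11 negative differences (median -0.08, beside -0.00). Cd36, a fatty acid carrier and PPARG target, was 54.2, 87.3 and 68.7 CPM in KO and 38.4, 44.2 and 27.8 CPM in WT (0.93 ± 0.23, adjusted p = 0.50). Agpat2, an enzyme of triglyceride synthesis, had a negative difference, at 140, 105 and 133 CPM in KO and 187, 236 and 191 CPM in WT (-0.70 ± 0.18, adjusted p = 0.50). The groups did not overlap for either gene. Of 10 early response genes tested in liver 9 had positive differences (median 0.70, beside -0.00), with Fos at 5.17, 3.04 and 3.27 CPM in KO and 0.860, 0.987 and 0.892 CPM in WT (2.06 ± 0.32, adjusted p = 0.123). Positive differences also held for 10 of 12 in eWAT (median 1.05, beside -0.02) and 8 of 12 in iWAT (median 0.25, beside 0.01). The inhibitors had positive differences in 13 of 16 in eWAT (median 0.46, beside -0.02), 14 of 16 in iWAT (median 0.13, beside 0.01) and 10 of 13 in liver (median 0.19, beside -0.00). In eWAT 8 of 10 glucocorticoid-induced genes (median 0.51) and 14 of 19 further regulators (median 0.12) were positive too, beside a median of -0.02. The glucocorticoid-induced genes split into 5 positive and 5 negative in both iWAT (median 0.02) and liver (median -0.12). Of the further regulators 12 of 19 were positive in iWAT (median 0.07) and 8 of 14 in liver (median 0.14).

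Genes whose pattern lay nearest to a member were ranked by the root mean square difference of centred log2 values over 18 libraries, among 11508 genes. For Pparg these were Col5a3, Abcd2 and Gpat3 (0.42, 0.42 and 0.43, beside a median of 2.02 over all genes). For Cebpa they were Ces1d (0.29), Abhd15 (0.35) and a fellow member, Nr1h3 (0.39), beside a median of 1.38. Ces1d was also second for Nr1h3 (0.35), after Agmo (0.33). Klf15 lay nearest to the mitochondrial enzyme genes Maob (0.29) and Aldh2 (0.32) and to Scp2 (0.34). Ebf1 lay nearest to Fgf10 (0.40), Negr1 (0.46) and Myo5a (0.48), and Zfp423 to Rasgrf2 (0.37), Mturn (0.39) and Rgma (0.39). Rxra had Vwa8, Txnrd2 and Ggcx within 0.28, Cebpb had Nme2, Srm and Hras within 0.31, Cebpd had Mdfic, Coro1b and Ostf1 within 0.29, and Klf4 had Tgfbr3, B3galnt1 and Nav1 within 0.40. All 3 tissues enter these distances, so a gene with a like step between liver and fat scores as near.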

How the data were processed

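Polyadenylated RNA was sequenced from 18 libraries. Each library came with 2 values per gene from the authors. Expected counts, as deposited, need not be whole, and 8.33% of them were at least 0.01 off. FPKM values were scaled for gene length and library size by the authors before deposit. RSEM, HISAT2, Bowtie2 2.2.8, fastp 0.18.0, StringTie 1.3.1, edgeR and DESeq2 on mm10 are named, without their roles, per the submitters' processing notes. Of 22298 identifiers 22255 matched a GENCODE M21 symbol, and 26 rows with a repeated symbol kept their identifier.

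Counts were rounded, filtered (filterByExpr, minimum count 10, minimum total 15), scaled with TMM factors and tested over all genes with the quasi-likelihood test of edgeR 4.0.16 (robust glmQLFit, R 4.3.3), with Benjamini-Hochberg adjustment at 0.05. A gene is called when it passes. SE is the absolute log2 difference divided by the square root of F. Genotype was fitted within 6 libraries of a tissue, and tissue (mean of both genotypes) and interaction within 12. Printed CPM values are scaled within a tissue, and overlap between tissues was judged on CPM scaled over the 12 libraries compared. Groups came from the labels. Libraries of a group were checked for duplicates, and none were found (chi-square per gene 33.3 to 1033). The same-numbered libraries did not deviate together, so no pairing was used. Steps were tested on simulated data. Alternatives were DESeq2 1.42.0, limma 3.58.1 on log2(FPKM + 1), other scalings and filters, a replicate block, 1 genotype alone and leaving out each library. Unscaled totals for tissues, and fits of eWAT against other tissues without its libraries rich in epididymal transcripts, were added after seeing the data. Those libraries were WT replicate 2 and KO replicates 1 and 3, the KO libraries mainly through Crisp1.

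The members and lists were chosen with earlier results of these data known. All 10 members are named, with up to 3 genes of lowest p per list and the 3 nearest in pattern (mean log2 CPM of at least 1). Promoter sequences are RefSeq's (GRCm38.p6).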

Additional observations from a re-analysis of the deposited data

Results flagged for a closer look

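Klf15 in liver WT replicate 2 was 148 CPM, against 110, 118 and 115 CPM in the KO libraries and 109 and 121 CPM in the other WT libraries. It lay further from its nearest neighbour than Dixon's limit for 6 libraries allows: the gap was 0.69 of the whole range. Chance flags about 1 in 20 groups, and 30 groups of 6 libraries (10 members in 3 tissues) were looked at. The same library had the lowest Rxra of the liver libraries, at 236 CPM, against 425, 358 and 328 CPM in KO and 408 and 428 CPM in the other WT libraries, and the highest Cebpb, at 67.3 CPM.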

How the results depend on the processing

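The number of members called in the 9 comparisons stayed within 1.5 times its value under every alternative run. Signs of single members turned under some, and the cause was not tested. Among these only Cebpa and Nr1h3 in liver minus iWAT had passed, and unscaled totals turned both. For KO minus WT in eWAT, log2(FPKM + 1) with limma gave 0.15 for Cebpb, 0.10 for Klf15 and 0.87 for Nr1h3, while the median of all genes moved by 0.34, and in iWAT it gave 0.01 for Nr1h3. The replicate block gave 0.10 for Nr1h3 in eWAT and 0.31 for Ebf1 in iWAT minus eWAT; it called 0 members between genotypes in each tissue, 39 genes in liver and 1057 in iWAT minus eWAT. The 3 eWAT libraries poor in epididymal transcripts gave -0.16 for Cebpa, 0.60 for Cebpb and -0.16 for Ebf1. They set KO replicate 2 alone against WT replicates 1 and 3, so the spread among KO libraries is not measured there. For iWAT minus eWAT, Ebf1 was 0.00 with median-of-ratios factors, without the filter and with DESeq2, and 0.08 with unscaled totals. WT libraries alone gave 0.01 for Pparg, -0.06 for Cebpa, 0.27 for Ebf1 and -0.11 for Nr1h3 (0 genes called), and KO libraries alone -0.06 for Rxra and -0.05 for Zfp423 (1010 genes). Leaving out the 3 eWAT libraries rich in those transcripts gave -0.20 for Rxra, -0.40 for Cebpa, -0.39 for Cebpb and -0.52 for Nr1h3. Only KO replicate 2 then stood for eWAT KO. Unscaled totals gave -0.51 for Cebpa and -0.00 for Nr1h3 in liver minus eWAT, and -0.59 and -0.10 in liver minus iWAT.

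With WT libraries alone Pparg in liver minus eWAT was -3.39 (adjusted p = 0.0848) and 5398 genes passed, against 10525 with both genotypes. DESeq2 called Nr1h3 there (1.32, adjusted p = 0.0311). Cebpa in liver minus iWAT was lost in WT alone (1.06, adjusted p = 0.0629) and in KO alone (0.53, adjusted p = 0.181). For KO minus WT over all genes, no filter called 11 genes in liver, and 1 fit of 18 libraries called 0 in liver and 4 in eWAT. For the interactions, 1 to 9 genes passed when some single libraries were left out.

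Leaving out 1 library at a time gave these ranges where a sign turned. For KO minus WT in eWAT they were -0.40 to 0.71 for Cebpa, -0.72 to 0.28 for Cebpb, -0.49 to 0.71 for Ebf1, -0.66 to 0.30 for Klf15, -0.97 to 0.29 for Nr1h3, -0.33 to 0.81 for Pparg and -0.01 to 0.61 for Rxra. In iWAT they were -0.05 to 0.82 for Cebpa, -0.47 to 0.19 for Cebpb, -0.97 to 0.17 for Klf15, -0.67 to 0.12 for Klf4, -0.34 to 0.10 for Nr1h3, -0.55 to 0.64 for Pparg and -0.13 to 0.24 for Rxra. In liver they were -0.08 to 0.40 for Cebpd and -0.17 to 0.20 for Rxra. For iWAT minus eWAT they were -0.26 to 0.29 for Cebpa, -0.11 to 0.42 for Cebpb, -0.28 to 0.31 for Ebf1, -0.27 to 0.36 for Nr1h3, -0.44 to 0.16 for Pparg, -0.09 to 0.22 for Rxra and -0.15 to 0.37 for Zfp423. Depth limits Ebf1 and Zfp423 in liver, where 10 reads or fewer were counted per library.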

Other observations

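Among genes outside the members that separated iWAT from eWAT, Stat5b and the transcriptional corepressor gene Tle3 were called higher in iWAT, by 0.61 ± 0.14 and 0.58 ± 0.15 on the log2 scale. The number of depot calls varied with the libraries used: over all genes, 2692 passed with 12 libraries, 16 without eWAT KO replicate 3 and 0 in the WT libraries alone (edgeR). Klf2, an inhibitor of fat cell formation in cultured cells, was 100, 117 and 119 CPM in iWAT KO and 74.0, 47.4 and 62.4 CPM in iWAT WT, against 28.8, 42.7 and 45.3 CPM in eWAT KO and 23.8, 5.30 and 20.7 CPM in eWAT WT. Klf2 was called higher in iWAT (1.66 ± 0.31, adjusted p = 0.0152). Its lowest iWAT value, 47.4 CPM, was that of WT replicate 2, whose summed B cell markers were 7.39 CPM, against 474 CPM or more in the other iWAT libraries. WT replicate 1, with the highest sum (1643 CPM), had 74.0 CPM of Klf2. The part of B cells in this depot difference was not tested. Sox9 differed by -4.08 ± 0.75 (adjusted p = 0.0146), with 52.1 CPM in eWAT WT replicate 2, the library richest in epididymis markers. Within iWAT, where 9.38% of all genes had genotype groups that did not overlap, Klf2 was among them (0.87 ± 0.21), as was Zfp521, at 16.8, 17.3 and 16.5 CPM in KO and 24.0, 39.2 and 30.4 CPM in WT (-0.89 ± 0.21), and Ddit4, a stress and glucocorticoid response gene, at 54.1, 55.9 and 61.3 CPM in KO and 24.9, 32.1 and 32.5 CPM in WT (0.94 ± 0.17). None of these iWAT genotype differences passed (adjusted p = 1.0 for each). The summed adipose progenitor markers (1767 to 2394 CPM in KO, 2967 to 8160 CPM in WT) and macrophage markers (1761 to 2361 CPM in KO, 3214 to 3770 CPM in WT) also separated these iWAT groups, and their part was not tested. Among the progenitor markers, only Pdgfra, Col1a1 and Col3a1 did so singly.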
